A study of Mus musculus with 20 samples.

Results

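Hepatocytes clear bile acids, hormones and drugs from portal blood through uptake transporters of their sinusoidal membrane, and 6 genes for such carriers are described here across mouse liver and liver tumours: Slc10a1, Slco1b2, Slco1a1, Slco1a4, Slco2b1 and Slc22a7. They were chosen by name, as genes with at least 1 probe set that carries only their symbol, and they are 6 of the 18193 genes measured in this way. Together they have 14 such probe sets, and a gene is represented by its brightest one. Expression is given as log2 intensity, so that a difference of 1 is a doubling.

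RNA from male C57BL/6 mice with a conditional Apc knockout was hybridised to 20 Affymetrix arrays, 5 in each of 4 groups. Non-tumour liver came from animals without drug (H2O_NT, called untreated liver) or on phenobarbital (PB_NT, phenobarbital liver), carcinomas (APCko_Carcinoma) from animals without drug, and adenomas (APCko_Adenoma) from animals on phenobarbital. The protocol gives tamoxifen, 0.75 mg once by intraperitoneal injection at 6 weeks of age, and from 1 week later standard chow or a diet with 0.05% phenobarbital for 9 months. The series' design text instead names DEN as the tumour-initiating dose, which these sources do not settle, and the untreated group is named for water although the protocol names chow. All 4 groups carry the conditional knockout, there is no wild-type group, and no source used here names the driver of the recombination. The labels do not say that the arrays of a group came from separate mice, or whether tumours and non-tumour liver shared mice, so a p-value measures only the spread between these samples. Tumour type and diet differ together between carcinomas and adenomas and cannot be told apart.

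As background, Slc10a1 encodes NTCP, the sodium-dependent carrier for conjugated bile acids. The Slco genes encode OATPs, which take up bile acids, bilirubin, steroid and thyroid hormone conjugates and many drugs without sodium, and Slc22a7 encodes the organic anion transporter OAT2. Hepatocyte nuclear factors and bile acid-sensing nuclear receptors control many of these genes in normal liver. Slco1a1 is known in mice as a male-predominant gene under the pulsatile growth hormone pattern that acts through STAT5, and Slco1a4 as a gene that activators of the receptors CAR and PXR can raise.

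Slco1b2, Slco1a4 and Slco1a1 lie in this order on chromosome 6, Slc10a1 on chromosome 12, Slco2b1 on chromosome 7 and Slc22a7 on chromosome 17. RefSeq start-site windows (build GRCm38.p6) were matched for 5 of the 6 genes, all but Slc22a7. Slc10a1 had the largest measured fall in carcinomas, though falls to levels near background may be understated. Among the 3 Slco genes on chromosome 6, Slco1a1 was called lower in adenomas and the others were not. The sequences shown are those of Slc10a1 and these 3 Slco genes. They were read on the gene's strand, 5′ to 3′, and hold the bases before the outermost annotated start. The Slc10a1 stretch is chr12:80968706-80968955 on the minus strand, that of Slco1b2 is chr6:141629268-141629451 on the plus strand, that of Slco1a1 is chr6:141946963-141947212 on the minus strand, and that of Slco1a4 is chr6:141856285-141856470 on the minus strand. Capitals mark exact matches, on either strand, to any of 8 short motifs.
Slc10a1: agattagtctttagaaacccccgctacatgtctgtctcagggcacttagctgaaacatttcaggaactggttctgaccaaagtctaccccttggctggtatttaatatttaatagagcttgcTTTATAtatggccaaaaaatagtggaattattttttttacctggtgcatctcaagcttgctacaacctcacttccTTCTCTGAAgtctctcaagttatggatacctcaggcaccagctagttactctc
Slco1b2: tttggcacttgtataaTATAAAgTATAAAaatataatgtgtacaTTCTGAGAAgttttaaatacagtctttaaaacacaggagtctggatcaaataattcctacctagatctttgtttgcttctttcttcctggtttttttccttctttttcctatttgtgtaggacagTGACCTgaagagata
Slco1a1: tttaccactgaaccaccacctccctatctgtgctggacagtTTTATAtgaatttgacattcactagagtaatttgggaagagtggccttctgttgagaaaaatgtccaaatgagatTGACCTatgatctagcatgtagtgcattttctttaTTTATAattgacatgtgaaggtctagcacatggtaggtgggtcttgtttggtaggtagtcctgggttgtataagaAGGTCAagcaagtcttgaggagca
Slco1a4: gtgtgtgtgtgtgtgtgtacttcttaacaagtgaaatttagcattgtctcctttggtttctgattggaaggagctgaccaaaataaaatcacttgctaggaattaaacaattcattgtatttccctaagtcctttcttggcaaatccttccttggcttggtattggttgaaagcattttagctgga

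Each motif was searched on both strands of the 250 bases before the start in all 32851 windows of the table. For each of the 5 genes only the outermost of its windows was used. There are 8 windows of these genes, and the 3 at inner starts of Slc10a1 and Slco2b1 were not searched for the counts by gene. For Slco1b2 and Slco1a4 the start of the window used lies inside the annotated gene. Of the 250 bases only 184 for Slco1b2 and 186 for Slco1a4 lie before the outermost annotated start and are shown above. The STAT motif, written TTCNNNGAA, is in the Slc10a1 and Slco1b2 windows and in 7.02% of all windows. The single nuclear receptor hexamer AGGTCA is in the Slco1a1 window on each strand and in the Slco1b2 window on the other strand, against 14.0% of all windows. The TATA box letters TATAAA are in the windows of Slc10a1, Slco1a1 and Slco1b2 and in 12.4% of all windows. HNF1 letters, written GTTAAT, occur only in the Slco1b2 window among the 5 outermost windows, in the stretch gaagagataGTTAATcatcactga just inside its outermost annotated start, and in 6.43% of all windows. The FOXA motif, written TGTTTAC, is in 3.17% of all windows and in none of the 5. For the TCF/LEF motif, written CTTTGAT, the share is 3.21%, again with none of the 5. The HNF4 motif CAAAGTCCA is in 0.384% of all windows and the C/EBP motif, TTGCGCAA, in 0.164%, and neither is in a transporter's window. None of the 8 motifs is in the Slco1a4 or Slco2b1 window. A match is a string of letters and not a measured site.

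Array medians lay between 5.52 and 5.63 and values between 2.67 and 15.09. The Apc probe set read 8.64 to 8.97 in untreated liver, 8.43 to 8.71 in phenobarbital liver, 10.53 to 10.97 in carcinomas and 8.79 to 9.25 in adenomas, but where it lies relative to the deleted part is not given, so it does not check the deletion. Cyp2b10, the P450 gene known for its induction by phenobarbital, was 7.51 ± 0.95 (SD, n = 5) in untreated and 13.13 ± 0.19 (SD, n = 5) in phenobarbital liver. The mean of 12 hepatocyte markers was 13.50 to 13.60 across untreated arrays, 13.40 to 13.48 in phenobarbital liver and 12.56 to 13.06 in adenomas. In carcinomas it was 6.76 to 10.51, lowest on arrays 2 (6.76) and 5 (8.78), and those 2 arrays stand apart in several results below.

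Every one of the 6 uptake genes was lower in carcinomas than in untreated liver, from a log2 difference of -3.58 for Slc22a7 to one of -6.87, or 117-fold, for Slc10a1. In adenomas 4 of the 6 were lower than in phenobarbital liver, by 1.94-fold to 7.19-fold, while Slco1b2 averaged 13.16 there against 13.36 in phenobarbital liver. Phenobarbital liver gave 0 of 6 past the threshold, and 1, Slco1a1, at an unadjusted limma p under 0.05. In carcinomas Slc22a7 was below the array median on 5 of 5 arrays, Slco1a1 on 3, Slc10a1 and Slco1a4 on 2 each and Slco1b2 on 1. No detection call was used, and where such levels are near background the falls in carcinomas are understated to an unknown extent. Differences taken from those falls are then inexact too, so the sizes do not rank the genes. The counts rest on limma's moderated test in 1 fit over all 20 arrays, with Benjamini-Hochberg adjustment over the 18193 genes and a threshold of 0.05. Of all genes, 37.6% were called lower and 31.4% higher in carcinomas, 11.2% lower and 13.4% higher in adenomas, and 0.022% lower and 0.192% higher in phenobarbital liver. The median difference of the 6 genes was -4.89 in carcinomas, where that of all genes was -0.12, and -1.27 in adenomas, where that of all genes was -0.03. The carcinoma and phenobarbital comparisons share the untreated arrays, and the adenoma and phenobarbital comparisons share the phenobarbital arrays.

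**Figure D1:**
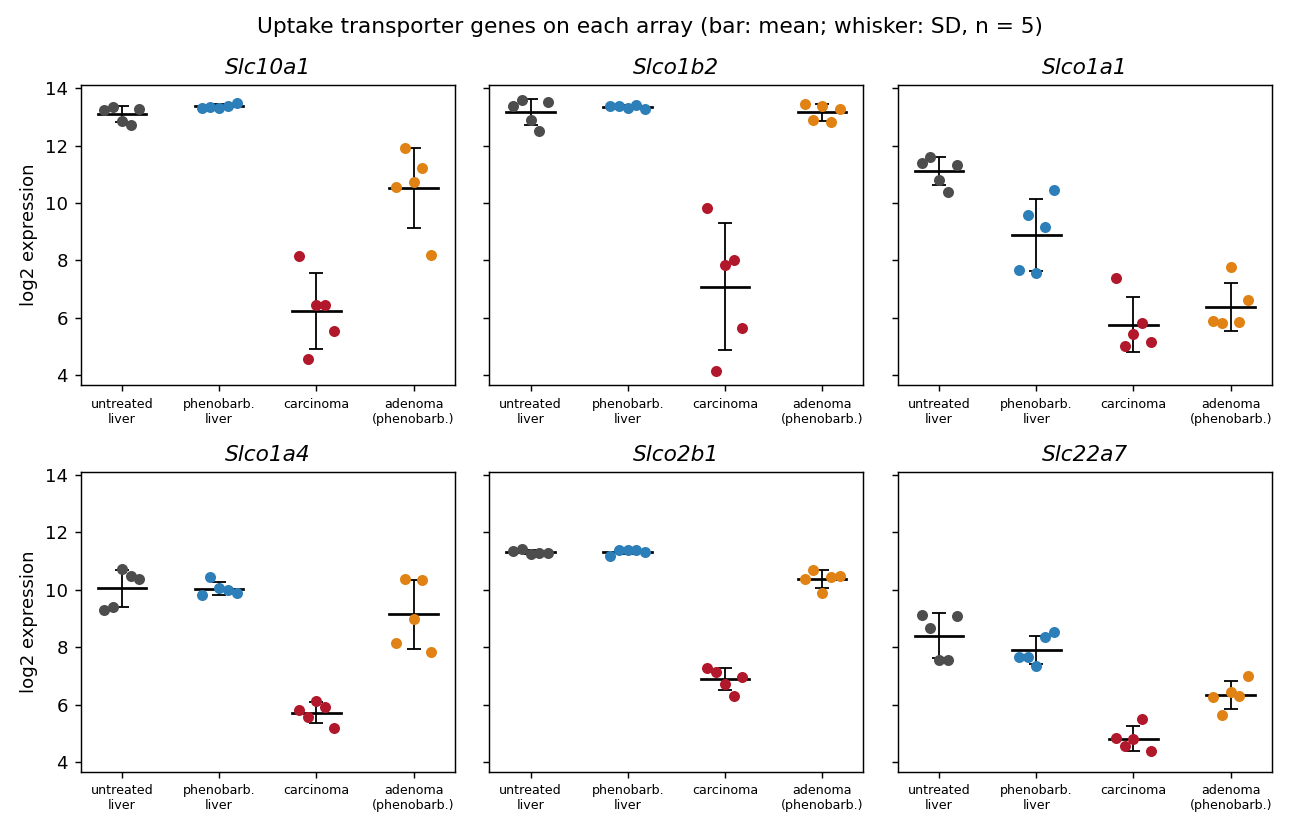
Log2 expression of each uptake transporter gene on every array, by group (points: arrays 1 to 5 from left to right; bar: mean; whisker: SD). Carcinoma arrays lie below all untreated arrays for all 6 genes, a separation whose share over all genes was not counted. By limma's test 37.6% of all genes were called lower in carcinomas. Slco1b2 in adenomas (12.81 to 13.46) overlaps both liver groups.

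Slc10a1, the main sodium-dependent bile acid carrier, read 13.25, 13.35, 12.86, 12.72 and 13.28 on untreated arrays 1 to 5 and 13.32, 13.34, 13.31, 13.40 and 13.48 in phenobarbital liver. Its carcinoma values were 8.14, 4.57, 6.44, 6.44 and 5.53, and its adenoma values 10.55, 11.92, 10.73, 11.22 and 8.20. No tumour array reached the non-tumour range, and all adenomas were above all carcinomas, with the lowest adenoma (8.20) just over the highest carcinoma (8.14). The carcinoma difference was -6.87 ± 0.57 (SE; limma adjusted p = 1.8e-09), the 20th lowest of all genes. In adenomas Slc10a1 fell by 2.85 ± 0.57 (SE; limma adjusted p = 0.001), and adenomas stood 4.30 above carcinomas (limma adjusted p = 1.6e-06). Without adenoma array 5, the lowest, the adenoma difference was -2.26 (limma adjusted p = 0.0013), and without carcinoma arrays 2 and 5 the carcinoma difference was -6.09. Phenobarbital liver differed from untreated liver by 0.28, with a 95% interval from -0.91 to 1.46 that holds 0. The spread was unequal: the SD over 5 arrays was 0.28 in untreated liver, 0.07 in phenobarbital liver, 1.32 in carcinomas and 1.41 in adenomas. A second Slc10a1 probe set gave -7.30 in carcinomas and -3.12 in adenomas.

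Slco1b2 encodes OATP1B2, the liver-specific mouse counterpart of human OATP1B1 and OATP1B3. It read 13.40, 13.59, 12.89, 12.51 and 13.51 in untreated liver, and 13.37, 13.39, 13.33, 13.43 and 13.29 in phenobarbital liver. Carcinomas gave 9.82, 4.13, 7.84, 8.0 and 5.63, and adenomas 13.46, 12.89, 13.39, 12.81 and 13.27. Every carcinoma was below every other array, whereas the adenomas lay within the range of untreated liver. Adenoma arrays 2, 4 and 5 (12.89, 12.81 and 13.27) were below all phenobarbital arrays. The carcinoma difference was -6.10 ± 0.66 (SE; limma adjusted p = 1.1e-07), a 68.5-fold lower level. Without carcinoma arrays 2 and 5, lowest on the hepatocyte markers, it was -4.63 (limma adjusted p = 1.7e-09). It was -5.36 without carcinoma array 2 alone and -6.78 without carcinoma array 1, the highest. The adenoma difference was -0.20 with a 95% interval from -1.58 to 1.19, and the fit pools the spread of all 4 groups (SD 2.22 in carcinomas against 0.30 in adenomas). Adenomas exceeded carcinomas by 6.08 (limma adjusted p = 1.3e-07), the 30th highest such difference of all genes.

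Slco1a1, the male-predominant carrier OATP1A1, was 11.41, 11.61, 10.81, 10.40 and 11.31 in untreated liver. Phenobarbital liver gave 7.68, 9.58, 7.56, 9.18 and 10.45. Phenobarbital array 5 overlapped the lowest untreated array and the other phenobarbital arrays were below all untreated ones. The phenobarbital difference of -2.22 ± 0.54 (SE) was the third lowest of all genes but missed the threshold (limma adjusted p = 0.13, unadjusted p = 0.00056). It passed with array quality weights (-2.20, limma adjusted p = 0.021) and without phenobarbital array 5 (-2.61, limma adjusted p = 0.044). Its second probe set gave -2.19.

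In tumours Slco1a1 was low in both types. Carcinomas read 7.38, 5.03, 5.42, 5.81 and 5.16, and adenomas 5.89, 5.80, 7.77, 5.84 and 6.62. These values overlap, and adenoma 3 also overlaps phenobarbital arrays 1 and 3. The gene fell by 5.35 ± 0.54 in carcinomas (SE; limma adjusted p = 3.3e-08) and by 2.51 ± 0.54 in adenomas against phenobarbital liver (SE; limma adjusted p = 0.0019). Against untreated liver the adenoma difference was -4.72 (limma adjusted p = 2.8e-06). Adenomas minus carcinomas gave 0.62 with a 95% interval from -0.50 to 1.75 (limma adjusted p = 0.32), which does not show that both tumour types have the same level. Measured from untreated liver, Slco1a1 had the lowest and Slco1b2 the highest adenoma difference of the 6 genes (-4.72 and -0.02), a pair picked after its values were seen and not tested against each other.

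Slco1a4, the carrier OATP1A4, also present at the blood-brain barrier, was 9.30, 9.40, 10.71, 10.48 and 10.37 in untreated liver and 9.82, 10.43, 10.08, 9.99 and 9.89 in phenobarbital liver. Carcinomas gave 5.82, 5.57, 6.11, 5.90 and 5.19, all far below every other array. Adenomas gave 8.15, 10.39, 8.99, 10.34 and 7.83, so that arrays 2 and 4 lay in the phenobarbital range and arrays 1, 3 and 5 below it. The carcinoma difference was -4.33 ± 0.42 (SE; limma adjusted p = 1.7e-08). The adenoma difference of -0.90 ± 0.42 (SE; limma adjusted p = 0.13) missed the threshold. It passed without adenoma array 2 (-1.22, limma adjusted p = 0.033), without adenoma array 4 (-1.20, limma adjusted p = 0.037) or with array quality weights (-1.10, limma adjusted p = 0.032). Although this gene is known as a CAR and PXR target, its phenobarbital difference was -0.01, with a 95% interval from -0.88 to 0.86.

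The 5 adenomas were not alike, and the genes did not vary between them in 1 order. Slc10a1 and Slco1a4 were both highest on adenoma arrays 2 and 4, next on 3 and 1, and lowest on 5. Slco1b2 was lowest on arrays 2 and 4, and so was Slco1a1 (5.80 and 5.84), with array 1 close at 5.89. Slco2b1 was highest on array 2 and lowest on array 3. Cyp2b10, set beside them after its values were seen, read 7.64, 13.22, 11.01, 12.46 and 9.24 on adenoma arrays 1 to 5, also highest on 2 and 4. The hepatocyte marker mean was 12.56, 12.84, 12.71, 13.06 and 12.58 on the same arrays, again highest on 2 and 4. Slc22a7 ran otherwise, lowest on array 2 and highest on array 5. With 5 arrays these orders are a description, and their relation was not tested.

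**Figure D2:**
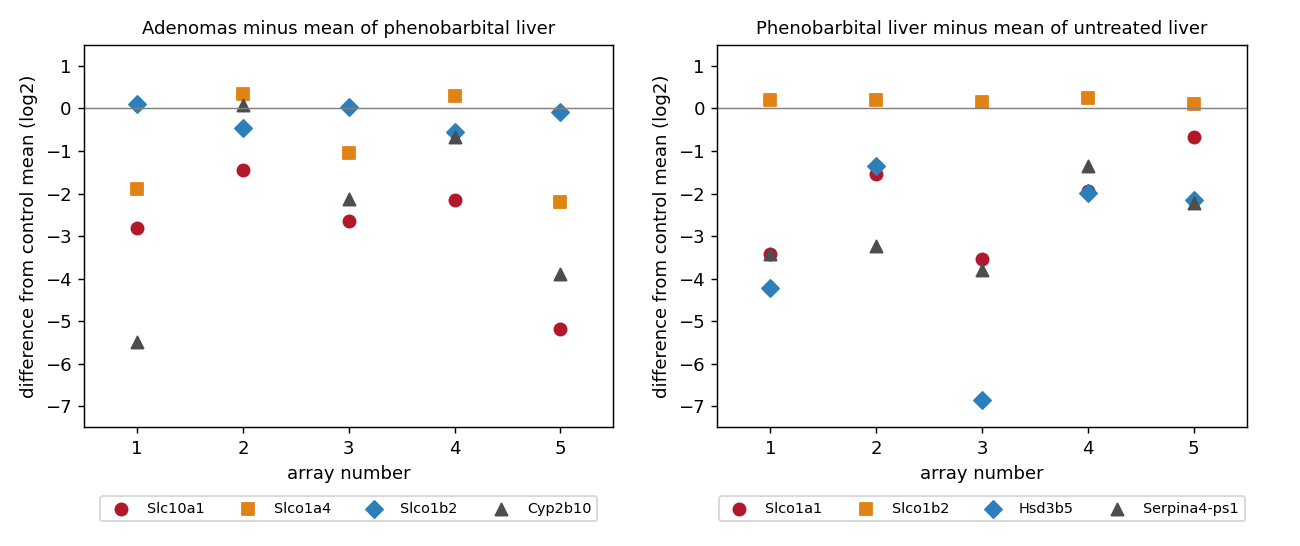
Difference of each array from the mean of its control group (log2) against array number, for adenomas (left) and phenobarbital liver (right). In adenomas Slco1b2 stays between -0.55 and 0.10 while Slc10a1 runs from -5.18 to -1.45. In phenobarbital liver Slco1a1 and Hsd3b5 are both lowest on arrays 1 and 3, but Hsd3b5 is shown for its likeness to Slco1a1 over these same arrays.

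Slco2b1, a broadly expressed OATP, varied little within the liver groups (SD 0.07 in untreated and 0.09 in phenobarbital liver, n = 5 each). It read 11.35, 11.43, 11.26, 11.30 and 11.30 in untreated liver and 11.18, 11.40, 11.38, 11.39 and 11.31 in phenobarbital liver. Carcinomas gave 7.29, 7.14, 6.70, 6.31 and 6.97, and adenomas 10.37, 10.70, 9.88, 10.46 and 10.48. The 2 tumour groups overlapped neither each other nor the liver groups. The carcinoma difference was -4.44 ± 0.16 (SE; limma adjusted p = 7.3e-15) and the adenoma difference -0.95 ± 0.16 (SE; limma adjusted p = 0.00017). Its phenobarbital difference was 0.01, with a 95% interval from -0.32 to 0.33.

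Slc22a7 encodes OAT2, a carrier of organic anions such as nucleotides and prostaglandins. Untreated liver gave 9.11, 8.67, 7.56, 7.56 and 9.08, and phenobarbital liver 7.67, 7.64, 7.36, 8.34 and 8.52. Carcinomas gave 4.84, 4.54, 4.81, 5.51 and 4.37, each below the median of its array, and adenomas 6.27, 5.63, 6.44, 6.31 and 6.98. The liver groups overlapped, all adenomas lay below all livers, and all carcinomas lay below all adenomas. The gene fell by 3.58 ± 0.33 in carcinomas (SE; limma adjusted p = 1e-08) and by 1.58 ± 0.33 in adenomas (SE; limma adjusted p = 0.0016). The phenobarbital difference was -0.49 with a 95% interval from -1.18 to 0.20.

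Untreated arrays 3 and 4 were lower than the other 3 untreated arrays for Slc10a1, Slco1a1, Slco1b2 and Slc22a7, but not for Slco1a4 or in the hepatocyte marker mean (13.50 and 13.60). The mean of the stellate and mesenchymal markers was highest on the same 2 arrays, at 9.11 and 9.02 against 8.44, 8.34 and 8.13 on the others. The endothelial mean (7.89 and 7.70) and the lymphocyte mean (6.41 and 6.55) were also highest on these arrays, and the macrophage and cholangiocyte means were not. The part of cell makeup in these values was not tested. Without both arrays, 6 genes were still called lower in carcinomas. The phenobarbital difference was then -2.55 for Slco1a1 (limma adjusted p = 0.22) and moved from -0.49 to -1.05 for Slc22a7 (limma adjusted p = 0.41).

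**Figure D3:**
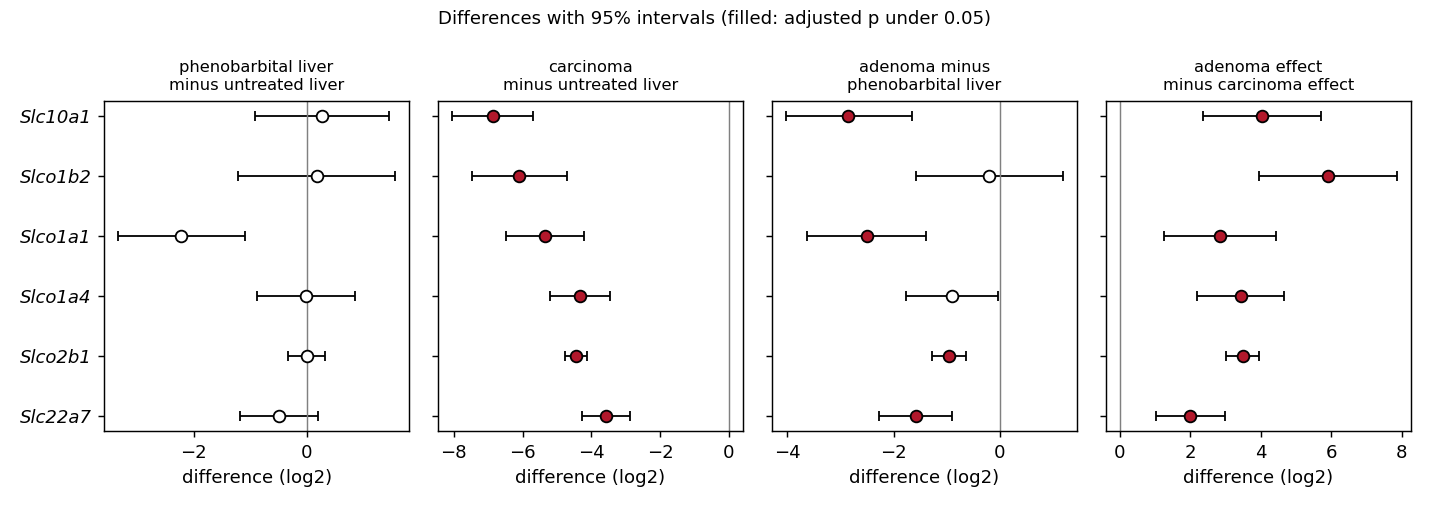
Fitted differences (log2) with 95% intervals for the 6 genes in 4 comparisons; the horizontal scale differs between panels and filled points passed the adjusted threshold of 0.05. All 6 are filled for carcinomas and for the difference between the tumour effects, 4 for adenomas and 0 for phenobarbital. Over all genes, 37.6% were called lower in carcinomas, 11.2% lower in adenomas and 23.3% higher for the difference between the tumour effects.

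Adenomas exceeded carcinomas for 5 of the 6 genes, all but Slco1a1, where 33.6% of all genes were called higher and 28.5% lower. To set each tumour group against liver of the same diet, the carcinoma effect was subtracted from the adenoma effect within the fit. This difference was positive and passed the threshold for all 6 genes, against 23.3% of all genes called in each direction. It was 5.90 ± 0.94 for Slco1b2 (SE; limma adjusted p = 3e-05), 4.03 ± 0.80 for Slc10a1 (SE; limma adjusted p = 0.00033) and 3.49 ± 0.22 for Slco2b1 (SE; limma adjusted p = 1.6e-10). The values were 3.43 for Slco1a4, 2.84 for Slco1a1 and 2.0 for Slc22a7. For Slco1a1 the control levels themselves lay apart by 2.22, so the smaller fall in adenomas starts from a lower level. Without carcinoma arrays 2 and 5 all 6 still passed, from 1.76 for Slc22a7 to 4.43 for Slco1b2.

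Probe sets of the same gene read different sizes of fall. Of the 5 Slco1b2 probe sets, 3 gave carcinoma differences of -6.10, -5.83 and -5.46. The other 2 are dim, at 4.13 and 4.84 in untreated liver, below the array medians, and gave -0.55 and -0.93. In adenomas the 3 brighter Slco1b2 sets gave -0.20, -0.08 and -0.61 and the 2 dim ones -0.19 and -0.39, none past the threshold. For Slco2b1 the brightest probe set gave -4.44, another -2.38 in carcinomas and -1.0 in adenomas, and the dimmest, at 5.66 in untreated liver, -0.62 and 0.20. With the mean of all probe sets in place of the brightest, the carcinoma difference was -3.77 for Slco1b2 and -2.48 for Slco2b1, and both stayed past the threshold. The adenoma effect minus the carcinoma effect was then 3.48 and 1.90. Slco1a4 and Slc22a7 have 1 probe set each.

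**Figure D4:**
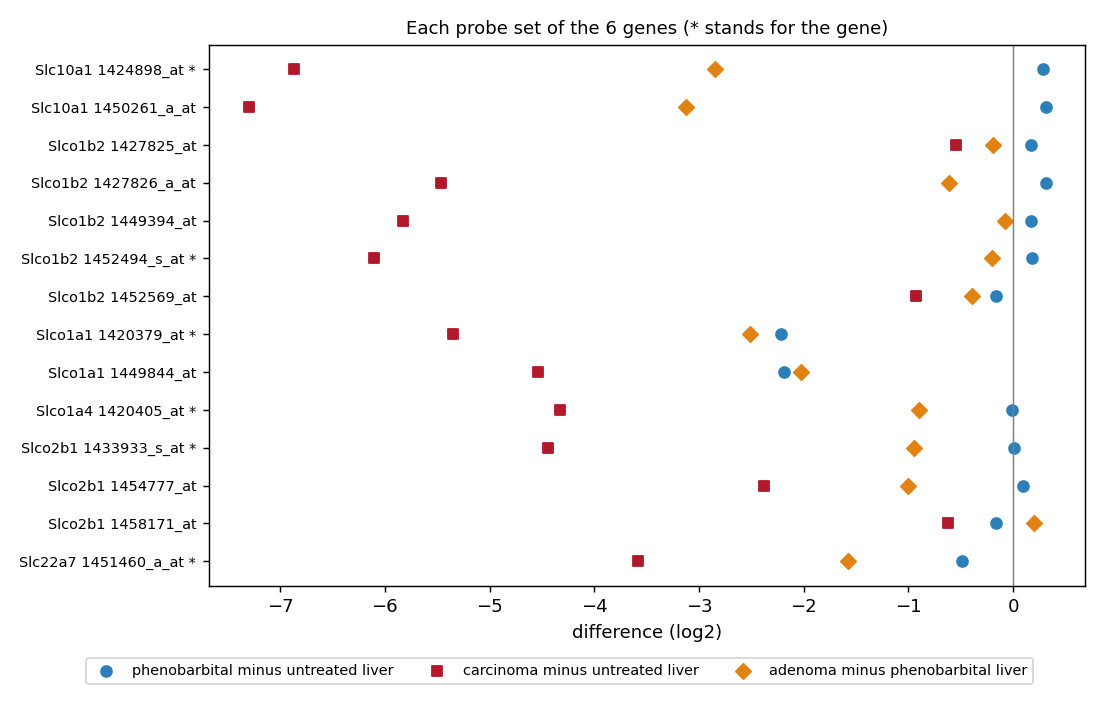
Difference (log2) read by each of the 14 probe sets of the 6 genes in 3 comparisons; an asterisk marks the probe set that stands for the gene. Both Slc10a1 probe sets read falls near 7 in carcinomas (-6.87 and -7.30), whereas the 5 Slco1b2 probe sets run from -6.10 to -0.55.

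The likeness of other genes was measured as the root mean square difference over the 20 arrays, each gene centred on its own mean. Nearest to Slco1b2 were Slc27a2, a fatty acid transport and acyl-CoA synthetase gene (0.29), Akr1c14, a hydroxysteroid dehydrogenase (0.30), and Ugt3a2, a glycosyltransferase (0.31). Nearest to Slco2b1 were Necab1 (0.24), Shmt1, a serine hydroxymethyltransferase (0.27), and Pemt, which makes phosphatidylcholine (0.28). For Slc10a1 they were the urate oxidase gene Uox (0.67), the C-reactive protein gene Crp (0.67) and Il1rap (0.70). For Slco1a4 they were Albfm1 (0.49), Psen2 (0.54) and the sterol desaturase gene Sc5d (0.57), and for Slc22a7 Sdr9c7 (0.49), Serpina11 (0.52) and Dnase1l3 (0.54). Slco1a1 had no gene closer than Hsd3b5, a male-predominant steroid dehydrogenase (1.04), the growth factor receptor gene Egfr (1.04) and Serpina4-ps1 (1.06). Among the 6 genes themselves the least alike were Slco1a1 and Slco1b2 (2.34) and the most alike Slco1a4 and Slco2b1 (0.67).

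Hsd3b5 and Serpina4-ps1 belong to a list of genes known to be higher in male than in female mouse liver. In phenobarbital liver 1 of the 10 measured genes of that list was called lower, Serpina4-ps1 (-2.80), with a list median of -0.79 where that of all genes was 0.0. Hsd3b5 read 7.12, 9.99, 4.49, 9.35 and 9.19 on phenobarbital arrays 1 to 5, lowest on arrays 1 and 3, as was Slco1a1. It was set beside Slco1a1 for its likeness over these same arrays, so the shared order is not separate evidence. Of 9 measured genes known to be higher in females, 4 were called higher in phenobarbital liver, led by Sult3a1 (7.19) and Cyp2b13 (5.70). In carcinomas 10 of the 10 male-high genes fell, with Cyp4a12a at -7.22 and Elovl3 at -7.16, and in adenomas 5 of 10 fell, led by Elovl3 (-5.74) and C8a (-2.89). Some female-high genes fell in tumours too: 4 of 9 in carcinomas, led by Cyp4a14 (-5.76) and Cyp17a1 (-4.38), and 5 of 9 in adenomas against phenobarbital liver. The adenoma falls were led by Sult3a1 (-6.52) and Cyp2b13 (-4.27), and both start from levels raised in phenobarbital liver. In carcinomas neither Sult3a1 (-0.41) nor Cyp2b13 (-0.82) was called. For this list no comparison of adenomas with untreated liver is given here. All samples are labelled male.

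Of 24 other Slco and Slc22 genes, 13 fell and 2 rose in carcinomas, with a median of -0.32. The largest falls were those of Slc22a30 (-6.50) and Slc22a18 (-4.30), and the rises those of Slco3a1 (3.43) and Slc22a17 (2.40). In adenomas 3 fell and 1, the thyroid hormone carrier gene Slco1c1, rose (0.70). Phenobarbital raised 2 of the 24, Slc22a27 (2.06) and Slc22a26 (1.27). A further list of 19 solute carrier genes of hepatocytes holds mainly uptake carriers but some metal exporters too. Of these, 17 fell in carcinomas with a median of -3.60, among them the glucose transporter gene Slc2a2 (-6.74) and the bile acid-CoA ligase gene Slc27a5 (-6.45). Slc16a10 (1.38) and Slc38a2 (0.80), for amino acid carriers, rose. In adenomas 7 of these 19 fell and 5 rose, with the glutamate transporter gene Slc1a2 at 3.20 and Slc13a3 at 2.81, and in phenobarbital liver 0 of the 19 passed limma's threshold, or an unadjusted 0.05.

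On the export side, 12 of 13 genes fell in carcinomas with a median of -4.38, among them Slc47a1 (-6.52) and Abcb11, the canalicular bile salt pump (-6.15). The exception was Abcc4, a basolateral efflux pump, which rose by 4.66 in carcinomas, 3.39 with phenobarbital and 1.61 in adenomas. In adenomas Abcc3 (-1.0) and Abcc6 (-0.66) fell. Of 24 measured regulators, 17 fell and 2 rose in carcinomas. Nr5a2, for a receptor of bile acid synthesis genes (-5.08), and Nr1h4, for the bile acid receptor FXR (-4.98), fell most, and Prox1 (3.16) and Foxa2 (1.79) rose. In adenomas 5 of the 24 regulators fell, led by Onecut1 (-2.12) and the FXR target gene Nr0b2 (-1.50), and 2 rose, Foxa3 (0.90) and Nfe2l2 (0.42). In phenobarbital liver 0 of the 24 passed limma's threshold and 1 an unadjusted 0.05. Hnf4a was 12.66 in untreated liver, 8.80 in carcinomas and 12.64 in adenomas.

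All 12 hepatocyte markers were lower in carcinomas, with a median difference of -3.80, and 2 of 12 were in adenomas, with a median of -0.26. Alb was 14.96 ± 0.04 (SD, n = 5) in untreated liver and 12.66 ± 2.03 (SD, n = 5) in carcinomas, where it ran from 9.18 to 14.03. Carcinoma arrays 2 and 5, lowest on these markers, were also the lowest for Slc10a1 (4.57 and 5.53), Slco1b2 (4.13 and 5.63), Slco1a4, Slco1a1 and Slc22a7, but not for Slco2b1. Of 10 stellate and mesenchymal markers, 6 rose and 1 fell in carcinomas, where their mean was 10.11 to 11.26 against 8.13 to 9.11 in untreated liver. Of 10 endothelial markers 7 fell, with means of 5.13 to 6.23 against 7.59 to 7.89. Cholangiocyte markers gave 2 rises and 1 fall among 5, macrophage markers 3 rises and 4 falls among 10, and lymphocyte markers 3 rises and 4 falls among 8. In adenomas the stellate and mesenchymal list gave 4 rises, led by Col1a2 (2.08) and Acta2 (2.04), and 3 falls, led by Lrat (-1.73) and Reln (-1.64), with means of 8.17 to 9.76 against 8.41 to 8.76 in phenobarbital liver. The endothelial list gave 2 rises and 2 falls there, the macrophage list 1 rise and 3 falls, the lymphocyte list 1 and 1, and 0 of 5 cholangiocyte markers passed limma's threshold or an unadjusted 0.05. Whole tissue was measured, so fewer hepatocytes and less RNA of a gene per hepatocyte cannot be told apart, and the part of cell makeup in the transporters' falls was not tested. Without carcinoma arrays 2 and 5 all 6 genes were still lower in carcinomas, from -3.34 for Slc22a7 to -6.09 for Slc10a1.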

How the data were processed

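The authors deposited 1 table of log2 values for 45037 probe sets and 20 arrays, made with RMA per the submitters' processing notes. Of the probe sets, 34945 carry 1 gene symbol in GEO's platform annotation (34741 matched a RefSeq symbol), 932 several and 9160 none. Each of 18193 genes was represented by its single-symbol probe set of highest mean, leaving out only sets with the cross-hybridising suffix _x_at where another existed. The sets that stand for Slco1b2 and Slco2b1 carry the suffix _s_at, which marks probes shared between transcripts. Differences, standard errors and adjusted p-values came from limma 3.58.1 (R 4.3.3), with 16 residual and 3.22 prior degrees of freedom. The script was tested on simulated data. Replicate numbers were not taken as pairs, since same-numbered arrays did not deviate together. Other settings tried were leaving out dim genes, averaging probe sets, changed eBayes settings, scaling, quantile normalization, weights and left-out arrays. The number of arrays limits the precision. All 6 transporters are named. Of each gene list at most the 2 largest called rises and falls of a comparison are named, and for each transporter the 3 most alike genes. The exceptions, Cyp2b10 in adenomas, Hsd3b5 in phenobarbital liver, Sult3a1 and Cyp2b13 in carcinomas, Alb, Hnf4a and Apc, were chosen after their values were seen or as checks. The transporters and all lists were chosen with earlier results of these data known.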

Additional observations from a re-analysis of the deposited data

Results flagged for a closer look

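The adenoma effect (adenomas minus phenobarbital liver) differed from the carcinoma effect (carcinomas minus untreated liver) for each of the 6 genes by limma's interaction test. That test called 23.3% of all genes in each direction. The log2 difference was 5.90 for Slco1b2, 4.03 for Slc10a1, 3.49 for Slco2b1, 3.43 for Slco1a4, 2.84 for Slco1a1 and 2.0 for Slc22a7, each with the smaller fall in adenomas. For Slco1a1 the control levels lay apart by 2.22, and adenomas minus carcinomas gave 0.62 (limma adjusted p = 0.32). Carcinoma levels were below the array median on 5 of 5 arrays for Slc22a7 and 3 of 5 for Slco1a1, so where these are near background the carcinoma falls are understated. Adenoma levels of Slco1a1 were low as well, with a median of 5.89. For that gene the direction of any error in the difference is therefore not known. Of the 24 sets of 5 arrays (6 genes in 4 groups), 0 held an array far enough from the rest to stand out by Dixon's criterion.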

How the results depend on the processing

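No alternative that was run for the 5 comparisons removed or reversed the call of a transporter. The number of transporters called in phenobarbital liver was 0, and 1 (Slco1a1) with array quality weights. Leaving out each array in turn gave 0 to 1 for that count, the 1 without phenobarbital array 5. Over all genes, 39 were called in phenobarbital liver, against 205 with array quality weights and 265 when only those groups were fitted, 25 without phenobarbital array 2 and 23 without array 3. With the replicate block the Slco1a1 phenobarbital difference was -2.22 (limma adjusted p = 0.28), and the block changed no call. Same-numbered arrays had deviations correlated between -0.112 and 0.133 over 30 pairs, 1 of them over 0.1. Leaving out carcinoma arrays 2 and 5 together was chosen after seeing the data. With 5 arrays in a group and 1 spread for all groups, intervals of genes that vary mainly in carcinomas are wide in the other comparisons.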
